A study of Mus musculus with 32 samples.

Results

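The 9 genes described here handle vitamin A: *Lrat* and *Dgat1* of retinoid storage, *Rbp4* and *Stra6* of retinol transport, *Aldh1a1* and *Aldh1a2* of retinoic acid synthesis, *Rarb* of the retinoic acid receptors, and *Cyp26a1* and *Cyp26b1* of retinoic acid breakdown. They were chosen by symbol, out of the 34821 gene names on the array, and every probe named for one of them was taken, 11 of 55681 probes. *Rarb* has 3 probes and each other gene has 1. Where *Rarb* is given without a probe name, the value is that of A_55_P2084807, whose values varied most.

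The mRNA of 32 samples was measured on 16 two-colour Agilent arrays, with 4 samples in each of 8 groups. EC, IC and KC are control endothelial, Ito and Kupffer cells from the livers of Balb/c mice that received PBS into the spleen. ET, IT and KT are the same cell types of the tumor microenvironment (TME), from livers of mice that received C26 cells, a murine colon carcinoma line syngeneic with Balb/c. TM are tumor liver metastasis cells and TP are colorectal cancer (CRC) primary cells, as the labels name them. Endothelial and Ito cells were enriched on Percoll density gradients and Kupffer cells by adherence, and all fractions were then put in culture medium, so that each group is an enriched fraction rather than a sorted cell type. In such bulk samples, fewer cells of a type and less RNA per cell cannot be told apart. Cy3 labelled every control and TM sample, whereas Cy5 labelled every TME and TP sample. The dye and the TME or tumor site difference therefore cannot be told apart. Slide 1 held the endothelial and Ito arrays and slide 2 those of Kupffer and tumor cells, so that slide and cell type cannot be told apart where Kupffer cells are set against endothelial or Ito cells. Levels are log2 values of the deposited intensity. A value near 2 is the floor of this scale, and "detected" means that Agilent's software marked the spot as well above background.

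Vitamin A reaches tissues as retinol carried in blood by retinol binding protein, which hepatocytes secrete together with transthyretin. In the healthy liver most of it is stored by Ito (stellate) cells as retinyl esters in lipid droplets, and these cells lose the droplets when they become activated. Retinol is oxidised to retinal and then to retinoic acid, which acts through nuclear receptors that bind pairs of a short DNA half-site next to target genes, and cytochromes of the Cyp26 family clear it. *Rarb* and *Cyp26a1* are textbook targets of retinoic acid, so that a receptor and a clearing enzyme are part of the response itself.

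The promoters of *Rarb* and *Cyp26a1* are shown because they alone of the members held the classical response element. The search was for a pair of half-sites in the same orientation with 5 bases between them, on both strands. A half-site could be AGGTCA or its variant AGTTCA, and likewise the letters GGGTCA or the variant with GGTTCA. The RefSeq promoter windows (GRCm38.p6, 250 bases before to 50 bases after the start site) covered 8 of the 9 members. The pattern was found in 32 of all 32851 windows (0.0974%), among them those of 2 members, and in none of the windows of the 35 other retinoid genes covered. With 2 bases between the half-sites, 88 windows (0.268%) and no member held the pattern. Each stretch ends at the base before the start site, is written 5′ to 3′ on the strand of the gene, and has the matched pair with its spacer in capitals. The *Rarb* stretch is chr14:16575477-16575589 on the minus strand, with the match starting 53 bases before the start site. The *Cyp26a1* stretch is chr19:37697716-37697807 on the plus strand, where the match lies on the opposite strand and starts 32 bases before the start site. A match is a description of letters and not a test of binding.
Rarb: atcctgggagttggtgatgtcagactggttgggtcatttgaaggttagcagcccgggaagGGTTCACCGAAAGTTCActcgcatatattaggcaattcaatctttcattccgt
Cyp26a1: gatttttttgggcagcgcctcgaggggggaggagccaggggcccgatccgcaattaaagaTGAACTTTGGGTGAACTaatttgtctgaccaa

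Several samples stood apart. Between 37.4 and 56.1% of probes were detected in a sample, and among liver cells the lowest shares were those of IT replicate 2 and KC replicate 3. Over the 17105 probes detected in all samples, the TME minus control differences of array 4 ran against those of the other arrays in Ito cells (r = -0.66) and in Kupffer cells (r = -0.60), a correlation across probes. IC replicate 4 was closest to IT replicate 1, with an SD of the log2 difference of 0.23, and KC replicate 4 was as close to KT replicate 1, with an SD of 0.23. Conversely, IT replicate 4 lay at 0.27 from IC replicate 1 and KT replicate 4 at 0.24 from KC replicate 1. EC replicates 1 and 4 differed with an SD of 0.12 and EC replicates 2 and 3 with 0.16, against 0.39 to 0.41 for the other pairs of EC samples, and ET replicates 1 and 4 with 0.17. KT replicates 1 and 2 were as close, with an SD of 0.16, but only the endothelial pairs were averaged in an alternative. The TM samples fell into pairs too. Replicates 2 and 3 differed with 0.29 and replicates 1 and 4 with 0.41, against 0.85 to 0.87 across these pairs. TM replicate 4 lay at 0.32 from TP replicate 2 and TM replicate 1 at 0.33 from TP replicate 3. The TP minus TM differences of arrays 1 and 4 had r = -0.20 and -0.07 with the other arrays, against 0.64 for each of arrays 2 and 3. No alternative left out a TM pair. Whether the samples on array 4 of Ito and Kupffer cells were exchanged, or the nearly alike ones are technical repeats, was not tested. All samples were kept under their labels. Calls that single samples, array 4 of Ito and Kupffer cells or the endothelial pairs decide are given with and without them.

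The cell type labels were set against marker lists. Of 16 stellate markers, among them *Des*, *Reln*, *Lum* and *Dcn*, none was called higher in IC than in EC and 4 were called lower. The summed stellate marker level was 18.08 to 18.43 in EC, 17.15 to 18.24 in IC and 16.47 to 16.78 in KC. The Ito fractions thus did not hold more of these markers than the endothelial ones. The paper reports high purity of every fraction by staining for a protein marker of each cell type, which was not analysed here. Hepatocyte markers, among them *Alb* and *Apoa1*, were called higher in IC than in EC for 11 of 14 genes and in IT than in ET for 13 of 14, and lower in KC than in IC for 13 of 14. Of 11 Kupffer markers, 6 were higher in KC than in EC and 4 were higher in IC than in EC. Of 12 endothelial markers, 5 were lower in IC and 7 in KC than in EC. In the tumor samples 0 to 3 of the 14 hepatocyte markers and 1 or 2 of 7 intestinal epithelial markers were detected. Among the latter, *Epcam* and *Cdx2* were detected in none of the 8 samples. Yet 3 of the 7 were called higher and 0 lower in TM than in KC, and 3 higher and 1 lower in TP than in KT. The summed intestinal level was 11.07 to 12.76 in TM and 9.61 to 12.73 in TP, against 5.25 to 6.13 in KC and 5.08 to 6.53 in KT. The summed level of 5 mesothelial markers was 9.62 in ET replicate 2, against 7.16 to 7.27 in the other ET samples. It was 9.06 in IT replicate 2, against 6.26 to 7.40 in the other IT samples, but 2 of the 5 were detected there, as in IT replicates 1 and 3. The tumor samples had higher sums, 13.30 to 13.94, with 1 or 2 of the 5 detected. For 8 neutrophil markers the summed level was 13.90 in IC replicate 4 and 10.41 to 10.57 in the other IC samples. It was 10.79 in IT replicate 4 and 13.11 to 14.29 in the other IT samples. In Kupffer cells KC replicate 4 likewise held the highest neutrophil sum of KC (13.76) and KT replicate 4 the lowest of KT (11.77). The part of these other cells in the values below was not tested.

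**Figure D1:**
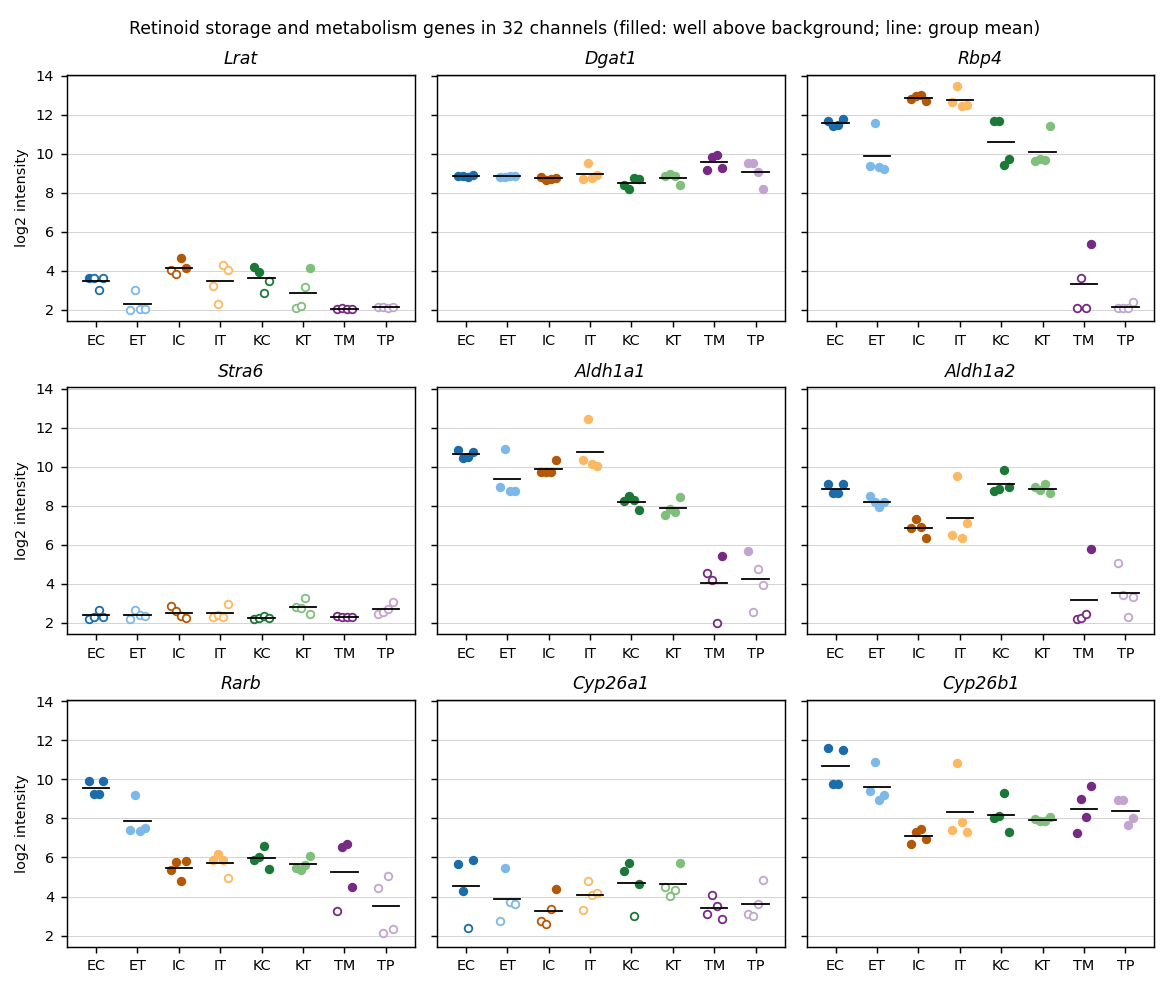
Level of each of the 9 genes in every sample, as the log2 of the deposited intensity on a common vertical axis. Each point is 1 sample, filled where the probe was well above background, and the lines are group means over 4 samples. *Rbp4*, *Aldh1a1* and *Aldh1a2* are not detected in most tumor samples, *Rarb* and *Cyp26b1* are highest in the endothelial groups, and *Stra6* is detected in no sample.

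Of the storage genes *Lrat* gave little signal. It encodes the enzyme that esterifies retinol for storage and is a hallmark of quiescent Ito cells. It was detected in 6 of the 32 samples, namely 2 IC, 2 KC, 1 EC and 1 KT sample. Its level was 4.07, 3.82, 4.63 and 4.13 in the 4 IC samples and 3.65, 3.62, 3.01 and 3.61 in EC. All IC values lay above all EC values, but the difference of 0.69 (SE 0.39, adjusted p = 0.342 by limma) was not called. Tumor samples lay between 2.04 and 2.14. Neighbouring groups in the order of *Lrat* means overlapped throughout. *Dgat1* encodes an acyltransferase that makes triglycerides and can esterify retinol, and it was detected in all samples. Its level was 8.87 ± 0.03 (SD, n = 4) in EC, 8.84 ± 0.04 in ET, 8.74 ± 0.07 in IC, 8.98 ± 0.37 in IT, 8.52 ± 0.28 in KC and 8.76 ± 0.25 in KT. No difference between these liver cell groups was called. TM samples held 9.18, 9.84, 9.92 and 9.29 and TP samples 9.50, 9.54, 9.04 and 8.19.

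Retinol transport was led by *Rbp4*, the carrier of retinol in blood, which was detected in all 24 liver cell samples. The level of *Rbp4* was 12.78, 12.96, 13.01 and 12.68 in IC and 12.67, 13.48, 12.46 and 12.49 in IT. EC samples held 11.69, 11.42, 11.48 and 11.80, whereas ET samples held 9.36, 11.55, 9.34 and 9.21. Both Ito groups thus lay above every endothelial sample, and ET replicate 2 sat at the level of the control cells. KC samples held 11.69, 11.67, 9.41 and 9.70, and KT samples held 9.62, 9.73, 9.67 and 11.44. In each Kupffer group the samples formed separate high and low sets, with KC replicate 4 at the level of most KT samples and KT replicate 4 at that of the high KC samples. TM samples held 2.12, 3.61, 2.10 and 5.38 and TP samples 2.09, 2.07, 2.08 and 2.38, with 1 of the 8 detected. Neighbouring groups in the order IC, IT, EC, KC, KT, ET, TM, TP overlapped in their ranges except IT with EC and ET with TM. *Stra6*, the membrane receptor that takes retinol up from its carrier, was detected in no sample, and its values of 2.18 to 3.26 give no order.

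The Ito groups, highest in *Rbp4*, were also highest in hepatocyte markers, and the tumors were lowest in both. The log2 of their summed level was 15.28 to 15.58 in EC, 14.27 to 15.54 in ET, 17.50 to 19.41 in IC, 17.65 to 19.19 in IT, 14.41 to 16.44 in KC, 15.83 to 16.34 in KT and 7.22 to 8.11 in the tumors. The ET sample with the highest sum, 15.54, was replicate 2, the KC sample with the lowest, 14.41, was replicate 3, and the KT sample with the highest, 16.34, was replicate 4. In these the sum and *Rbp4* were high or low together within the group. Within Ito cells they were not, since IC replicate 4 had the highest sum of IC (19.41) and its lowest *Rbp4*, and IT replicate 2 had a sum of 18.05, below the 19.19 and 19.15 of replicates 1 and 3, and the highest *Rbp4* of IT. KT replicates 1 to 3 also had sums of 15.83 to 15.85, above every EC sample, and *Rbp4* levels below every EC sample. The part of hepatocyte RNA in the *Rbp4* values was not tested. *Ttr*, the transthyretin that carries the *Rbp4* protein in blood, had means of 11.04 in EC, 9.16 in ET, 12.59 in IC, 12.44 in IT, 10.32 in KC and 10.08 in KT, and was not detected in any tumor sample.

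**Figure D2:**
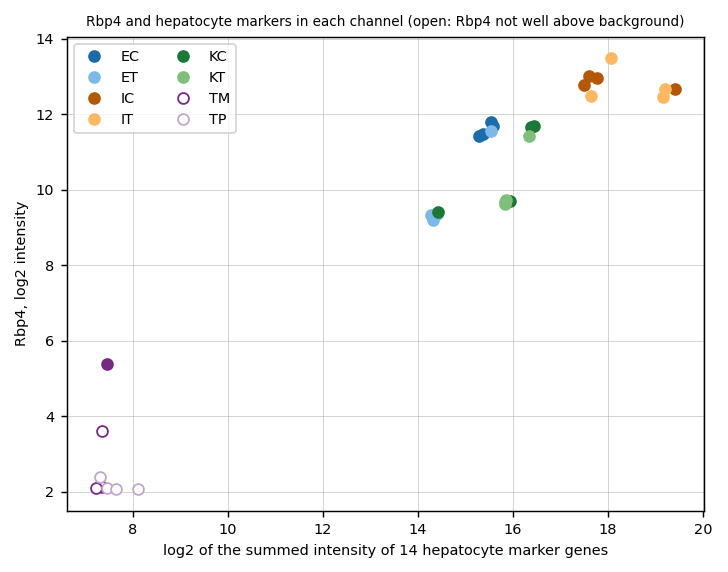
*Rbp4* against hepatocyte markers in the 32 samples. The horizontal axis is the log2 of the summed intensity of 14 hepatocyte marker genes, the vertical axis is the log2 intensity of *Rbp4*, and open points are samples in which *Rbp4* was not well above background. Ito samples hold the highest values on both axes and tumor samples the lowest, and ET replicate 2 lies with EC.

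The synthesis of retinoic acid was represented by a pair of retinal dehydrogenases. *Aldh1a1* was detected in all liver cell samples, with levels of 10.83, 10.46, 10.49 and 10.75 in EC and 8.96, 10.91, 8.76 and 8.76 in ET. IC samples held 9.74, 9.70, 9.72 and 10.35, and IT samples held 10.33, 12.46, 10.13 and 10.04. ET replicate 2 and IT replicate 2 stood above the rest of their groups. KC samples held 8.22, 8.51, 8.26 and 7.75 and KT samples 7.53, 7.82, 7.67 and 8.44, below all endothelial and Ito samples. In the tumors 2 of 8 samples were detected, with values between 2.00 and 5.69.

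*Aldh1a2*, the second dehydrogenase, had another order. Its level was 8.74, 8.83, 9.83 and 8.97 in KC and 8.97, 8.81, 9.11 and 8.62 in KT. EC samples, which overlapped with these, held 9.12, 8.65, 8.63 and 9.11 and ET samples 8.496, 8.20, 7.91 and 8.21. IC samples held 6.86, 7.34, 6.92 and 6.34, below all Kupffer and endothelial samples. IT samples held 6.51, 9.54, 6.35 and 7.09, with replicate 2 again far above the others. Of the tumor samples only TM replicate 4 was detected, at 5.76, and the others lay between 2.21 and 5.03.

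*Rarb*, the retinoic acid receptor whose promoter is printed above, was highest in endothelial cells. EC samples held 9.90, 9.23, 9.24 and 9.92 and ET samples held 7.40, 9.21, 7.37 and 7.53. The lowest EC and highest ET sample were close but did not overlap. IC samples held 5.38, 5.75, 4.79 and 5.82, IT samples 5.89, 6.17, 5.88 and 4.93, KC samples 5.87, 6.002, 6.57 and 5.41 and KT samples 5.49, 5.38, 5.63 and 6.09. All of these lay below all endothelial samples, and these groups overlapped with each other. TM samples were spread widely, at 3.26, 6.53, 6.71 and 4.47, in the pairs seen over the whole array, replicates 1 with 4 and 2 with 3. TP samples held 4.44, 2.15, 5.05 and 2.31 with none detected. The probe lies at chr14:17264648-17264707 (mm9, minus strand) and a second probe of the same transcript, A_55_P1962154, at chr14:17263367-17263426. By the second probe, EC samples held 12.18, 11.49, 11.38 and 12.20 and ET samples 9.57, 11.42, 9.27 and 9.57, and all other groups had means of 7.09 to 8.24. The third probe, A_55_P2099585, at chr14:17651424-17651483, is designed on another transcript record and was detected in no sample, so its values are not used below.

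Of the enzymes that clear retinoic acid, *Cyp26a1* was detected in 9 of 32 samples, and its group means of 3.27 to 4.67 all overlapped with the next in order. *Cyp26b1*, which clears retinoic acid in many tissues outside the hepatocyte, was detected in all samples. Its level was 11.63, 9.78, 9.78 and 11.53 in EC and 9.41, 10.89, 8.95 and 9.22 in ET. The EC values fell into the same pairs, replicates 1 with 4 and 2 with 3, that were nearly alike over the whole array. So did the EC values of *Rarb*, *Aldh1a2*, *Aldh1a1* and *Rbp4*, with smaller gaps between the pairs. For *Cyp26b1*, IC samples held 6.71, 7.29, 7.44 and 6.93 and IT samples 7.41, 10.84, 7.83 and 7.33. KC samples held 8.04, 8.13, 9.31 and 7.29 and KT samples 7.95, 7.88, 7.86 and 8.10. IC was the lowest group and did not overlap with EC, ET, KT or TP. The tumors held 7.27 to 9.68 and overlapped with the Kupffer cells.

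Between TME and control cells no member was called in any cell type by limma. Of all probes, 1.14% were called in the endothelial comparison, 0.289% in that of Ito cells and 0.436% in that of Kupffer cells. Without adjustment the members with a p under 0.05 numbered 3 of 9 for endothelial, 0 for Ito and 1 for Kupffer cells. The share of all probes at that p is not given, so no comparison with the whole array is drawn from these counts. The methods' t-test with adjustment called 0 members in each cell type. In endothelial cells 8 of 9 members had a lower mean in ET, with a median difference of -1.06 against 0.01 over all probes. The share of all probes with a lower mean is not given. Among the 8 were *Dgat1*, at 8.84 in ET and 8.87 in EC, and *Lrat* and *Cyp26a1*, detected in 0 and 1 of 4 ET samples. *Rbp4* differed by -1.73 (SE 0.61, adjusted p = 0.268), *Rarb* by -1.69 (SE 0.63, adjusted p = 0.324) and *Lrat* by -1.19 (SE 0.39, adjusted p = 0.206). Without ET replicate 2 these limma differences were -2.29 (adjusted p = 0.0685), -2.14 (adjusted p = 0.161) and -1.44 (adjusted p = 0.113). With normexp background correction followed by quantile normalization, the *Rarb* difference of -1.41 passed (adjusted p = 0.00371). *Aldh1a2* was lower in ET on 4 of 4 arrays, by 0.67 on the log2 scale, and was not called (adjusted p = 1.00). *Lrat* was detected in 1 EC and no ET sample, so its difference rests on values near the floor. The stellate marker sum was 17.30 to 18.03 in ET and the endothelial sum 15.75 to 16.34, both below the lowest EC sample (18.08 and 16.64). The Kupffer sum of 16.18 to 16.80 and the neutrophil sum of 11.95 to 13.04 lay above the highest EC sample (16.11 and 10.53). The part of these other cells was not tested.

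In Ito cells the differences between TME and control were 1.26 (SE 0.64) for *Cyp26b1*, 0.86 (SE 0.63) for *Aldh1a1* and -0.08 (SE 0.61) for *Rbp4*, none called. *Cyp26b1* was higher in IT on 4 of 4 arrays, but without IT replicate 2 the difference was 0.43. In Kupffer cells *Rbp4* differed by -0.50 (SE 0.61), and by -2.01 (SE 0.69, adjusted p = 0.115 by limma) without KC replicate 3 and replicate 4 of the Ito and Kupffer cells and IT replicate 2. *Lrat* was called lower in KT in that setting, by 1.60 on the log2 scale (adjusted p = 0.00912), against 0.73 (adjusted p = 0.724) with all samples. Its detected samples were then 2 KC samples and no KT sample, so this size too rests on values near the floor. *Stra6*, not detected, was called higher in KT without replicate 4 at values near the floor. No member's TME change was called different between Ito and endothelial, Kupffer and endothelial or Kupffer and Ito cells, where 0.111%, 0.0808% and 0.00359% of all probes were called. The lowest adjusted p over the members was 0.928 in these 3 tests. Without adjustment 3, 1 and 1 members had a p under 0.05, again without the share of all probes at that p. Between TP and TM, where 3.01% of all probes were called, no member was called by limma. Without adjustment 3 members had a p under 0.05, with no share of all probes at that p beside this count. The lowest adjusted p was that of *Rarb* (-1.75, SE 0.63, adjusted p = 0.134 by limma). Without TM replicate 1 *Rarb* passed as lower in TP (adjusted p = 0.0136). As no TP sample was detected by this probe, the fold with all samples is at least 1.23-fold, and by the second probe, detected in all samples, the difference was -0.83 (adjusted p = 0.469).

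**Figure D3:**
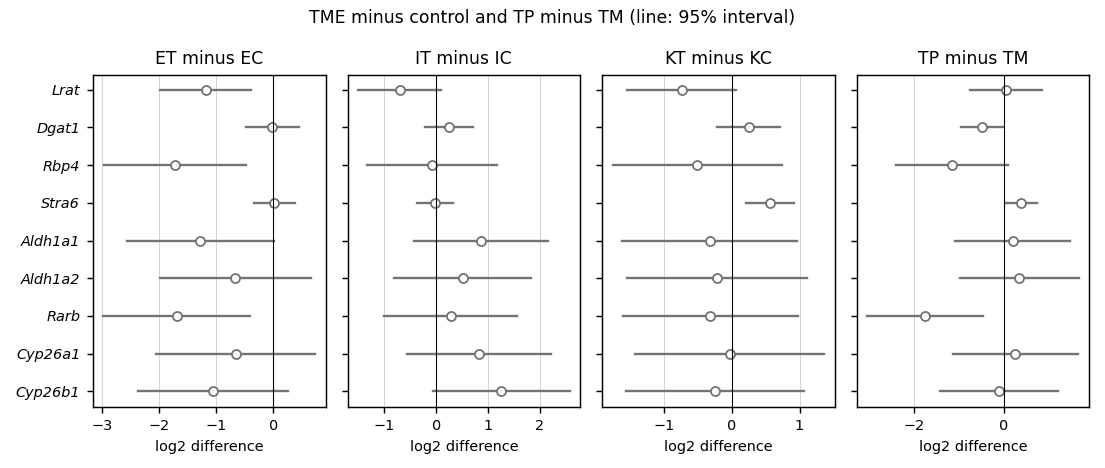
Differences of the 9 genes between TME and control cells and between TP and TM, as log2 differences with 95% intervals from limma, 4 samples a group. No point passed an adjusted p of 0.05, and 8 of the 9 points for endothelial cells lie below 0, that of *Dgat1* only just.

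Between the control cell types, 3 members were called lower in IC than in EC and none higher, where 5.72% of all probes were called lower and 4.17% higher. *Rarb* was 17.6-fold lower (-4.14, SE 0.63, adjusted p = 5.71e-05) and *Cyp26b1* 12.0-fold lower (-3.59, SE 0.64, adjusted p = 0.000381), and both calls held in the other normalizations, fits and left-out samples tried, although the methods' t-test at an adjusted p under 0.001 with at least 4-fold called no member in this comparison. *Aldh1a2* was 4.03-fold lower (-2.01, SE 0.64, adjusted p = 0.0456) and lost the call in 16 of 26 alternatives, among them without IC replicate 4 (-1.84, adjusted p = 0.103 by limma). *Rbp4* was 1.26 higher in IC with no overlap between the groups and was not called (SE 0.61, adjusted p = 0.234). In KC against EC, *Rarb* (-3.61, SE 0.63, adjusted p = 0.000108), *Cyp26b1* (-2.49, SE 0.64, adjusted p = 0.00534) and *Aldh1a1* (-2.44, SE 0.63, adjusted p = 0.00517) were lower and none was higher, where 12.1% of probes were lower and 8.95% higher. By the second *Rarb* probe the difference was -4.32 (adjusted p = 3.4e-06) for IC and -3.57 (adjusted p = 1.35e-05) for KC against EC. *Cyp26b1* was no longer called in KC against EC without replicate 1 of all groups (-2.12, adjusted p = 0.0788 by limma) or without replicate 4 of all groups (-1.90, adjusted p = 0.0968). Stellate markers were lower for 4 of 16 genes in IC and 8 of 16 in KC against EC, and endothelial markers for 5 and 7 of 12, and their part in these differences was not tested. With the nearly alike EC and ET samples averaged, *Aldh1a2* was no longer called in IC against EC (adjusted p = 0.237 by limma), which left 2 members, whereas 3 members were called in KC against EC.

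In KC against IC, *Aldh1a2* was 4.69-fold higher (2.23, SE 0.64, adjusted p = 0.018) and *Rbp4* 4.73-fold lower (-2.24, SE 0.61, adjusted p = 0.0116), where 7.24% of probes were called higher and 7.57% lower. Neither was called without KC replicate 3, where the differences were 1.98 (adjusted p = 0.0613) and -1.84 (adjusted p = 0.0555) by limma. Without replicate 4 of the Ito and Kupffer cells they were 2.10 (adjusted p = 0.0893) and -1.998 (adjusted p = 0.0563). In IT against ET, *Rbp4* was 7.52-fold higher (2.91, SE 0.61, adjusted p = 0.0024) and *Rarb* 4.48-fold lower (-2.16, SE 0.63, adjusted p = 0.0301), where 3.48% of probes were higher and 4.78% lower. *Rbp4* fell just short without replicate 1 of all groups (2.78, adjusted p = 0.052 by limma). *Rarb* lost this call without ET replicate 2 (-1.72, adjusted p = 0.134) and in 14 of 26 alternatives in all. Without IT replicate 2, *Cyp26b1* (-2.09, adjusted p = 0.0118) was called as well by limma, and so was *Lrat*, which also passed without ET replicate 2. This made 4 members, of which *Lrat* was detected in no IT or ET sample and has no measured difference. Scaling to the 75th percentile changed the share of higher among all called probes from 42.2 to 58.6% for IC against EC, from 42.1 to 55.9% for IT against ET, and from 59.1 to 69.6% for TP against KT.

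**Figure D4:**
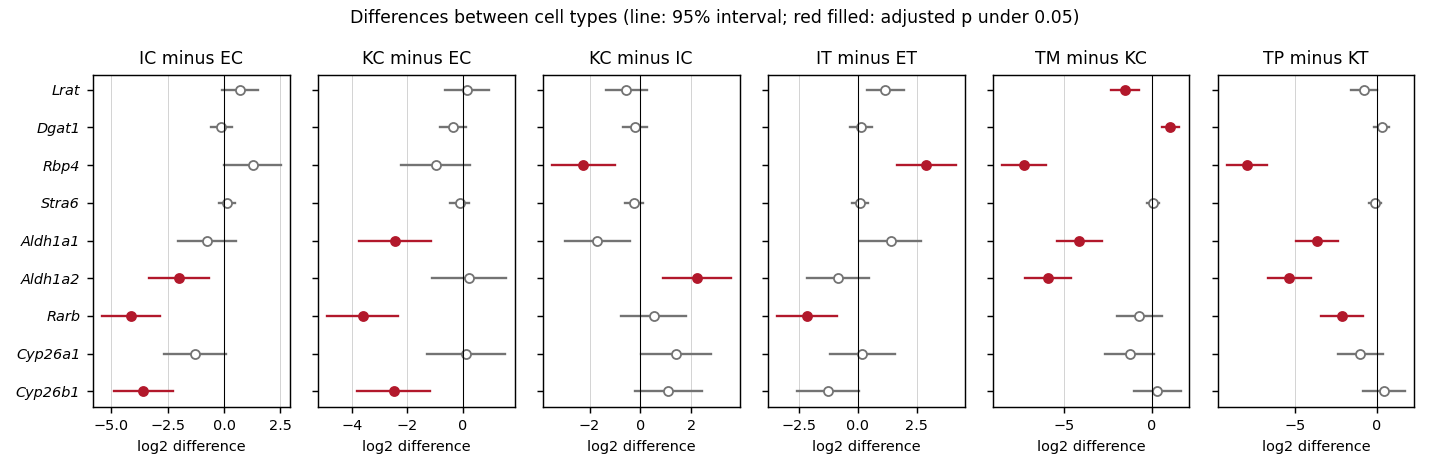
Differences of the 9 genes between cell types and between tumor and Kupffer cells, as log2 differences with 95% intervals from limma, 4 samples a group. Each panel has its own horizontal scale. Red filled points passed an adjusted p of 0.05: *Rarb* and *Cyp26b1* are lower in IC and KC than in EC, and *Rbp4*, *Aldh1a1* and *Aldh1a2* are lower in the tumors than in Kupffer cells.

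The tumor samples were compared with the Kupffer cells that shared their slide and dye. In TM against KC, 4 members were lower and 1 was higher, where 16.2% of all probes were lower and 23.3% higher. *Rbp4* differed by -7.32 (SE 0.61, adjusted p = 9.14e-11), *Aldh1a2* by -5.94 (SE 0.64, adjusted p = 1.35e-08), *Aldh1a1* by -4.15 (SE 0.63, adjusted p = 3.32e-06) and *Lrat* by -1.55 (SE 0.39, adjusted p = 0.00183). The *Lrat* fold is at least 1.02-fold, since no TM and only 2 KC samples were detected. *Rbp4*, *Aldh1a1* and *Aldh1a2* were each detected in 1 of 4 TM samples, so that their folds rest mostly on undetected TM values. *Dgat1* was 2.06-fold higher in TM (1.04, SE 0.23, adjusted p = 0.000399), with no overlap. In TP against KT, 4 members were lower and none higher, where 17.8% of probes were lower and 25.7% higher. *Rbp4* was at least 14.3-fold lower (fitted adjusted p = 1.52e-11), *Aldh1a2* at least 5.50-fold lower (adjusted p = 7.02e-08) and *Rarb* at least 1.29-fold lower (adjusted p = 0.00591), since none was detected in TP. The measured *Rbp4* means were 2.16 in TP and 10.11 in KT. *Aldh1a1* differed by -3.64 (SE 0.63, adjusted p = 2.08e-05), with 1 of 4 TP samples detected, so that this size rests mostly on undetected TP values. By the second *Rarb* probe, detected in all samples, the TP minus KT difference was -0.65 (adjusted p = 0.355), so the *Rarb* call held for 1 of the 2 detected probes. It was also lost without replicate 4 of all groups (-1.62, adjusted p = 0.111 by limma). Leaving out 1 sample added 3 calls by limma: *Cyp26a1* lower in TM than in KC without KC replicate 3 (adjusted p = 0.0328), *Lrat* lower in TP than in KT without KT replicate 1 (adjusted p = 0.0439), and *Dgat1* higher in TP than in KT without TP replicate 4 (0.59, adjusted p = 0.0142). *Cyp26a1* was detected in no TM sample (at least 1.12-fold with all samples), and *Lrat* in no TP and 1 KT sample, so that no size is given for it. *Cyp26b1* was not called, at 0.30 in TM against KC (95% interval -1.01 to 1.62) and 0.44 in TP against KT (-0.87 to 1.76). Against the same Kupffer cells all 11 Kupffer markers, all 12 endothelial markers and 11 or 12 of 14 hepatocyte markers were lower in the tumors.

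The wider pathway was read from 48 other retinoid genes. In ET against EC 2 rose and 3 fell, where 1.14% of all probes were called, and none was called between TME and control in Ito or Kupffer cells, by limma at an adjusted p under 0.05 over all probes. With the nearly alike endothelial samples averaged none of the 48 was called in ET against EC, without replicate 1 of all groups 1 rose and none fell, and with the array as a block 1 rose and 2 fell. Without IT replicate 2, KC replicate 3 and replicate 4 of the Ito and Kupffer cells, 2 rose and 2 fell in each of Ito and Kupffer cells. In ET, *Adh7*, an alcohol dehydrogenase that oxidises retinol, was higher (3.77, SE 0.63, adjusted p = 0.001), from 4.60, 4.30, 4.18 and 4.34 in EC to 8.63, 6.81, 8.44 and 8.62. *Dhrs9*, a short-chain dehydrogenase of retinol, was higher as well (1.31, adjusted p = 0.0362) but lost the call in 16 of 26 alternatives, against 3 of 26 for *Adh7*. *Aldh1a7* (-2.26, adjusted p = 0.00245), the retinol dehydrogenase *Rdh7* (-1.93, adjusted p = 0.0134) and *Ttr* (-1.88, adjusted p = 0.00436) were lower. All 4 ET samples of *Ttr*, at 9.01 to 9.33, lay below all EC samples, at 10.82 to 11.30. Of the 14 hepatocyte markers 2 were lower in ET too. Between TP and TM only *Aldh1a3*, another retinal dehydrogenase, was called (3.81, SE 0.77, adjusted p = 0.00554), at 6.10, 5.92, 6.23 and 7.13 in TP and 1.82, 1.83, 1.81 and 4.66 in TM. TM replicates 1 to 3 lay at the floor, so the size of this difference rests on values there. The *Aldh1a3* call was lost in 6 of 25 alternatives. Among them were both normexp settings, the fit to only the groups compared, the methods' t-test, and replicate 2 of all groups left out. The count between TP and TM rested on single samples, with 3 higher and 7 lower without TM replicate 1 and 4 higher and 2 lower without TM replicate 4. The TME change of *Aldh1a7* was the 1 of 48 called different between Ito and endothelial cells (2.94, SE 0.57, adjusted p = 0.0286), and it lost this call in 17 of 33 alternatives, among them the array block, the averaged endothelial samples, and EC replicate 1 or 4, ET replicate 1 or 3, IC replicate 1, 2 or 3, or IT replicate 1 or 2 left out.

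In IC against EC, 8 of the 48 were higher and 4 lower, where 4.17% of all probes were higher and 5.72% lower. With the nearly alike endothelial samples averaged it was 4 and 3, and without replicate 1 of all groups 4 and 2. The largest positive differences were those of *Adh7* (3.73), the retinyl ester hydrolase *Ces1d* (3.26), *Rdh7* (2.77) and the RBP receptor *Rbpr2* (1.72), and the lower ones were *Tgm2* (-2.30), an enzyme induced by retinoic acid, the retinal reductase *Dhrs3* (-1.56), the receptor *Rarg* (-1.37) and *Rpe65*, which was not detected. *Ttr* (1.54) and *Dgat2* (1.34), the acyltransferase related in function to *Dgat1*, were among the higher ones. In IT against ET 10 were higher and 2 lower, where the shares of all probes were 3.48 and 4.78%, led by *Ces1d* (4.55), *Rdh7* (4.21), *Aldh1a7* (3.63) and *Ttr* (3.28). The lower ones, *Rbp2* and *Rpe65*, were detected in neither group. *Ces1d*, *Rdh7* and *Ttr* are abundant in hepatocytes, whose markers were higher in the same comparisons, and their part was not tested. In KC against EC 8 were higher and 10 lower, beside 8.95 and 12.1% of all probes, and 5 and 7 with the nearly alike endothelial samples averaged. The carotenoid oxygenase *Bco2* (2.88), *Rbpr2* (2.16), the receptor *Rara* (1.59) and *Soat1* (1.56) were the highest, and *Rarres2* (-2.92), *Aldh1a7* (-2.002), the retinol dehydrogenase *Rdh10* (-1.80) and *Rarres1* (-1.52) the lowest. The *Rarres1* call was lost in 15 of 26 alternatives, against 0 or 1 for each of the others just named. *Dhrs3* was lower as well in KC than in EC (-1.22, adjusted p = 0.00396), and *Crabp2* was higher (0.92, adjusted p = 0.0193). In KC against IC 6 were higher and 10 lower, beside 7.24 and 7.57% of all probes, from *Tgm2* (2.04), *Bco2* (1.95), *Rara* (1.57) and *Lipe* (1.57) to *Adh7* (-3.55), *Aldh1a7* (-2.69), *Rarres1* (-2.44) and *Ces1d* (-2.40). *Rara* was 10.71 ± 0.38 (SD, n = 4) in KC, 9.13 ± 0.10 in EC and 9.15 ± 0.11 in IC. *Rxra*, the partner of the retinoic acid receptors, was called in none of the comparisons, with group means of 6.87 to 8.31.

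In TM against KC and in TP against KT, 11 of the 48 were higher and 19 lower. The share higher was near that of all probes, 23.3% in TM against KC and 25.7% in TP against KT, and 16.2 and 17.8% of all probes were lower. Higher in both were *Rarres1* (8.95 and 8.85), a gene induced by retinoids, the cellular retinoic acid binding protein *Crabp1*, and the binding protein *Rbp2*. *Crabp1* was detected in no liver cell sample, and exceeded KC by at least 9.84-fold in TM and KT by at least 30.4-fold in TP. *Rbp2* was at least 3.67-fold and at least 4.16-fold higher. *Crabp1* was uneven among the TM samples, at 10.96, 6.81, 6.28 and 11.82, in the same pairs, replicates 1 with 4 and 2 with 3, as over the whole array. *Crabp2*, which carries retinoic acid to its receptor, was 12.79 ± 0.55 (SD, n = 4) in TM and 13.28 ± 0.58 in TP against 8.40 ± 0.18 in KC and 8.31 ± 0.33 in KT (4.39 and 4.97). *Rarg* was higher as well (3.81 and 3.02) whereas *Rara* was lower (-2.07 and -2.31). *Ttr*, at least 19.1-fold and at least 14.1-fold, and the carotenoid oxygenase *Bco1*, at least 6.11-fold and at least 5.40-fold, were lower in TM and TP and detected in neither. *Bco2*, at least 4.15-fold lower in TM, *Lpl* (-6.32 in TM) and *Tgm2* (-6.27 in TP) were lower too. *Ces1d*, at least 5.04-fold lower in TP, *Dhrs3* (-1.90 and -2.17) and *Dgat2* (-1.996 and -2.12) were on the same side. *Rdh10* was lower in TP than in KT (-1.45, adjusted p = 0.00164) and not called between TM and KC. All differences given here passed an adjusted p of 0.05 by limma. Over all probes the median difference was 0.08 in TM against KC and 0.10 in TP against KT.

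**Figure D5:**
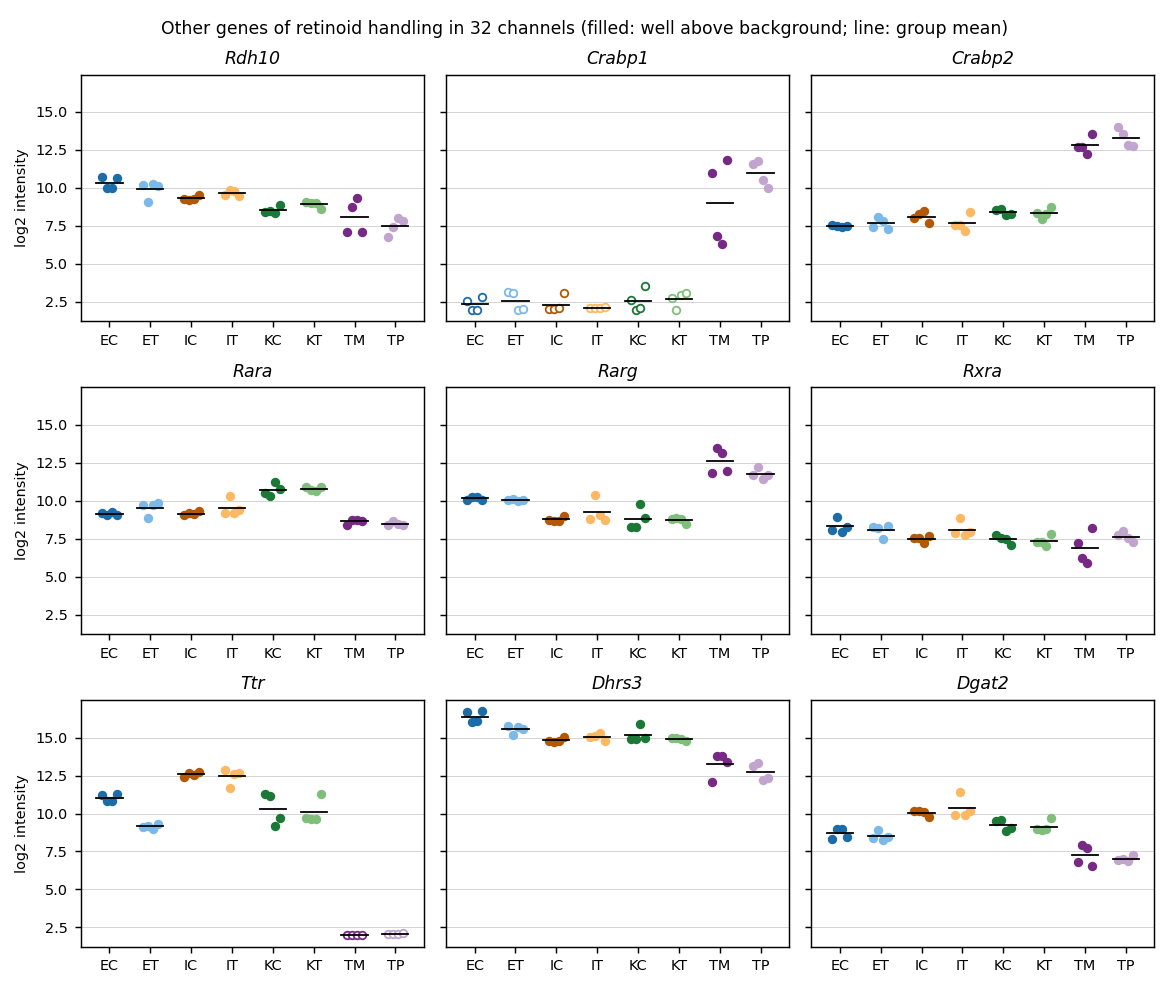
Level of 9 other genes of retinoid handling in every sample, as the log2 of the deposited intensity. Points are samples, filled where well above background, and lines are group means over 4 samples. *Crabp1*, *Crabp2* and *Rarg* are highest in the tumor samples, *Rara* in Kupffer cells and *Ttr* in Ito cells.

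The genes whose levels followed a member most closely over the 32 samples were found among probes detected on all 4 samples of at least 1 group. For *Rbp4* they were *Egfr* (r = 0.990), *Ces2e* (0.985) and *Mbl2* (0.982). For *Aldh1a1* they were *Bdh1* (0.955), *Neil2* (0.950) and *Pcsk6* (0.948), and for *Aldh1a2* they were *Cdc42ep4* (0.963), *Lrrc32* (0.957) and *Bcl3* (0.953). For *Rarb* they were *Dbp* (0.901), BB237529 (0.885) and *Mbd1* (0.881), for *Cyp26b1* *Rgs12* (0.865), *Syde1* (0.820) and *Caskin2* (0.812), and for *Dgat1* *Dctn2* (0.881), *Trnau1ap* (0.865) and *Aldh2* (0.862). These correlations are descriptions over samples that fall into liver cells and tumors and pairs that share an array, and they were picked as the highest of many. Over the 24 liver cell samples alone, which the rule for named genes did not cover, the lists were nearly all of other genes. They were *Apoc3* (0.973), *Egfr* (0.948) and *Ces2c* (0.947) for *Rbp4*, *Krt8* (0.966), *Krt18* (0.960) and *Tm4sf4* (0.947) for *Aldh1a1*, and *Slc27a3* (0.949), *Lypla2* (0.945) and *Osbpl7* (0.933) for *Aldh1a2*. For *Rarb* they were *Fam20a* (0.964), *Mbd1* (0.951) and *Dkk3* (0.947), for *Cyp26b1* *Hspb2* (0.921), *Tsc22d1* (0.917) and *Efnb1* (0.914), and for *Dgat1* *Aspscr1* (0.886) and *Lyrm4* (0.865) were the first in order. Of these, *Egfr* and *Mbd1* stood in both lists of their member. *Lrat*, *Stra6* and *Cyp26a1* were not detected on all 4 samples of any group and have no such list.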

How the data were processed

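The authors deposited, for each array, the intensity values that Agilent Feature Extraction gives per spot and channel, and a table of linear intensity per probe and sample. The table's columns followed the quantile-normalized processed signal of their own channel (lowest r = 0.99986 on the log2 scale), so it was taken as normalized. Log2 of this table was fitted with limma (lmFit and eBayes) to all 32 samples in 8 groups, with Benjamini-Hochberg adjustment over 55681 probes, and a probe was called at an adjusted p under 0.05. Where methods state a threshold of 4 and an adjusted p of 0.001, this was an alternative. One probe per gene, that of highest variance, was used. Detection came from the scanner flags, and for probes undetected in a whole group a lower bound of the fold was computed from normexp, loess and Aquantile values, which are open to dye bias. No spot was saturated. Precision is limited by having 4 samples in each group.

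Groups, dyes and replicate numbers came from the labels. Same-numbered control and TME samples share an array. The paper's methods call the replicates biological. The members and lists were chosen with earlier results of these data known. Named are all members; of the 48 other retinoid genes those called, up to the 4 largest rises and 4 largest falls per comparison, and *Rdh10*, *Dhrs3*, *Crabp2*, *Rara*, *Rxra*, *Ttr* and *Dgat2* always; and the 3 genes most like each member. *Rarg* and *Rbp2* in the tumors, where they were outside these 4, were named after their values were seen. A gene that the rule names is not reported here. Alternatives were other normalizations, a detection filter, a fit to only the groups of a comparison, the array as a block, the methods' t-test, the stricter threshold, the probe of highest mean and samples left out. The fit was tested on simulated data with 200 of 55681 probes changed in IC versus EC. It recovered 35.8% of changes of 1, 79.1% of 2 and 98.5% of 4 on the log2 scale, with 9 false calls. The simulated errors were independent and normal, unlike the nearly alike samples and the samples that stood apart here. These rates may therefore not hold for the real data. Probe coordinates are mm9 as in the files; promoters are RefSeq sequences of GRCm38.p6. R 4.3.3, limma 3.58.1, data.table (version 1.17.8), Python 3.11.15, numpy 2.4.6 and matplotlib 3.10.9 were used.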

Additional observations from a re-analysis of the deposited data

Results flagged for a closer look

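Of 88 sets of 4 samples, 11 probes in 8 groups, 14 had a sample whose gap to the nearest other sample exceeded Dixon's critical share of the range of the set. The nominal rate is about 1 in 20 for independent sets. These sets share samples and some hold undetected values near the floor, so the count is not read against that rate. ET replicate 2 accounted for 5 of the 14, above the rest of ET for *Rbp4* (gap ratio 0.935), *Aldh1a1* (0.905), *Lrat* (0.959), *Rarb* by A_55_P2084807 (0.914) and *Rarb* by A_55_P1962154 (0.86). Its hepatocyte marker sum of 15.54 and mesothelial marker sum of 9.62 were also the highest of ET, with 5 of 5 mesothelial markers detected. IT replicate 2 stood above its group for *Aldh1a1* (0.88) and *Cyp26b1* (0.857), and 42.4% of probes were detected in it, the lowest share among liver cells. Its mesothelial sum of 9.06 was the highest of IT, with 2 of 5 markers detected as in replicates 1 and 3. Its Kupffer (15.12) and endothelial (14.57) sums were the lowest of IT. KT replicate 4 stood above its group for *Rbp4* (0.939) and below it for *Dgat1* (0.83), and IC replicate 4 stood above its group for *Aldh1a1* (0.938), both on arrays whose TME minus control differences ran against the other arrays. TM replicate 4 stood above its group for *Aldh1a2* (0.935), as the only detected tumor sample of that gene. *Lrat* in EC replicate 3 (0.932), *Rbp4* in TP replicate 4 (0.926) and *Stra6* in IT replicate 4 (0.842) were set apart by values near the floor that were not detected.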

How the results depend on the processing

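The calls of *Rarb* and *Cyp26b1* in IC against EC, of *Rarb* in KC against EC, and of *Rbp4*, *Aldh1a1* and *Aldh1a2* in TM against KC and TP against KT held in all alternatives run but the methods' t-test at an adjusted p under 0.001 with at least 4-fold, which did not keep all of them. Against 0 members called between ET and EC, normexp with quantile normalization gave 1 and normexp with loess and Aquantile gave 2, both including *Rarb*. Over all 55681 probes the calls in that comparison went from 636 to 690 and 1288 in these settings. The share of all probes called is not given for the settings that follow. Their member counts are therefore not read as results about the members. Without IT replicate 2, KC replicate 3 and replicate 4 of the Ito and Kupffer cells, a choice made after seeing the data, 1 member (*Lrat*) was called in ET against EC, 2 in KT against KC and 1 in KC against IC. Without replicate 4 of the Ito and Kupffer cells alone, 1 was called in KT against KC, 1 in IT against ET and 0 in KC against IC. In IC against EC, fitting only the groups compared and the methods' t-test each gave 5 members in place of 3. In IT against ET, the only-groups fit and averaging the nearly alike endothelial samples gave 1 and the t-test 0 in place of 2, and without IT replicate 2 and KC replicate 3 it was 4. An adjusted p under 0.001 with at least 4-fold left 0 in IT against ET, 1 in KC against EC, 0 in KC against IC and 3 in TM against KC. Leaving out 1 sample or number at a time gave 0 to 1 members in KT against KC, 0 to 1 in TP against TM, 0 to 4 in IT against ET and 0 to 2 in KC against IC. The methods' t-test at an unadjusted p under 0.001 with at least 4-fold called 3 members in IC against EC, 2 in KC against EC, 1 in KC against IC, 2 in TM against KC, 2 in TP against KT and 0 elsewhere. With Benjamini-Hochberg adjustment these were 1 in KC against EC, 2 in TP against KT and 0 elsewhere. *Stra6*, undetected, turned sign in TP against KT with 75th percentile scaling (0.32), and was -0.38 to 0.0252 when 1 sample or number at a time was left out. Same-numbered samples did not deviate together in every pair (r from -0.64 to 0.40), so the numbers mark a shared array only. With the array as a replicate block, 0 members were called between TME and control in each cell type and between TP and TM, and as a random block 3 in IC against EC, so no count of members changed; counts of the 48 other retinoid genes did (ET against EC, TP against TM with 1 higher and 1 lower, and the Ito minus endothelial change with 0). The causes were not tested. Genes near the floor (*Lrat*, *Stra6*, *Cyp26a1*) are limited by signal over background.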
